A study of Mus musculus with 8 samples.

Results

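RNA levels of 8 genes for iron-sulfur enzymes that act in translation, tRNA modification and purine synthesis were followed in mouse blastocysts at embryonic day 4.5, just before implantation. The genes are Dph1, Dph2, Elp3, Cdkal1, Cdk5rap1, Tyw1, Abce1 and Ppat, chosen by name for the function of their products, out of 55471 genes in the files. All 8 were among the 13953 genes that passed the filter on low counts, and Dph2 passed it through its G77S libraries, since the other 5 libraries held 24, 13, 0, 0 and 0 counts. The 3 groups differ in Isca2, a mitochondrial carrier protein of iron-sulfur cluster assembly: wild type (WT, n = 3), homozygous loss of the gene (KO, Isca2 -/-, n = 2) and homozygosity for the G77S substitution (G77S, Isca2 G77S/G77S, n = 3). The labels describe hormone-primed heterozygous mothers mated with heterozygous fathers, recovery of the embryos and culture in medium, followed by amplification of full-length cDNA and transposase-based library preparation. The mating behind the G77S embryos, the number of embryos in a library and the litters are not named there, so the spread on which p-values rest may be in part technical.

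Iron-sulfur clusters are built first in mitochondria, and enzymes of the cytosol and nucleus receive theirs through a separate cytosolic assembly pathway that depends on the mitochondrial one. In DPH1-DPH2, ELP3, CDKAL1, CDK5RAP1 and TYW1 the cluster drives radical chemistry on S-adenosylmethionine. ABCE1 carries its clusters on an arm that swings between the ribosomal subunits, and PPAT matures only when its cluster is in place. The measurements here are RNA levels, not clusters, proteins or enzyme activity.

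Total expected counts (read counts estimated per gene) ran from 10323965 to 23842619 per library, and levels are given as CPM (counts relative to the TMM-scaled library size), where 3 counts correspond to 0.139 to 0.298 CPM. Isca2 itself stood at 86.9, 173 and 154 CPM in WT, 4.84 and 6.20 in KO, and 89.1, 105 and 133 in G77S. It fell by 4.64 on the log2 scale in KO against WT (SE 0.41, adjusted p = 0.00387; 0.0889 without KO replicate 2) and gave -0.34 in G77S against WT (adjusted p = 0.577). Fragments were shorter in the 3 G77S libraries (means of 182.4 to 186.1 bases, from the deposited lengths) than in the 5 others (243.7 to 292.1). Genes with at least 1 count numbered 15961 to 17560 in G77S, at totals of 10323965 to 13490295 counts. They numbered 14118 to 15758 in WT, and 14451 and 16021 in KO. The shares of all genes given below are not matched for abundance. The labels name no batch, and what set the fragment length cannot be told apart from genotype in the comparisons with G77S. Y-linked RNA was at 0.335 CPM in WT replicate 1 and 0.07 in G77S replicate 1, against 215 to 418 in the other 6 libraries. Trophectoderm markers summed to 7270 to 11200 CPM in WT, 7810 to 12800 in KO and 3910 to 4740 in G77S, with all 7 detected in every group. Epiblast markers summed to 241 to 305, 186 to 203 and 151 to 261 CPM in the same order, with Sox2 and Esrrb at 0 in all WT libraries. Primitive endoderm markers summed to 17.8 to 23.9, 41.9 to 47.0 and 29.2 to 40.2 CPM, with Gata4, Sox17, Sox7 and Foxa2 at 0 in WT, and Gata4 and Foxa2 at 0 in G77S. The 7 cumulus and granulosa cell markers were at 0 everywhere, and blood cell markers summed to at most 0.884 CPM. Oocyte markers summed to 0 to 24.7 CPM in WT, 4.19 to 8.21 in KO and 0.068 to 2.52 in G77S, with Zp1, Zp2 and Oosp1 at 0 in G77S. In such bulk samples fewer cells of a type and less RNA per cell cannot be told apart, and the part of these marker differences in the results below was not tested.

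Start regions are shown for Abce1 and Tyw1, which share theirs with a neighbour on the opposite strand, and for Dph1, the member with a call. RefSeq windows of 300 bases around gene starts (GRCm38.p6, 250 bases before to 50 after) matched 6 of the 8 members. They were searched on both strands for 4 motifs: the E-box CACGTG, the ETS motif CCGGAAG, the box CCAAT, and the cyclic-AMP response element TGACGTCA, the last chosen after the sequences had been read. Abce1 and Anapc10, a subunit of the anaphase-promoting complex, start 80 bases apart in opposite directions. Tyw1 and Sbds, a ribosome maturation factor, start 89 bases apart in the same way. The stretch between each of these pairs holds TGACGTCA, which 1.79% of all 32851 windows hold. CCAAT, present in 37.4% of windows, lies in reverse in the Abce1 stretch. Dph1 has its RefSeq start inside the gene as GENCODE draws it, which begins further upstream, at 75191241. The stretch shown lies before that RefSeq start, within the annotated gene, and holds none of the 4 motifs, while its window as a whole has 1 CACGTG, held by 7.15% of windows. Ppat and Paics also lie head to head, but the upstream part of each window lies in exons of the partner gene and is not printed. The Ppat window has 1 CCGGAAG (8.86% of windows), and the Paics window 1 CACGTG and 1 CCAAT. Capitals mark the motifs, each sequence reads 5′ to 3′ on the member's strand, and a match is a description of letters, not of a bound site.
Abce1 to Anapc10, chr8:79711741-79711819, minus strand: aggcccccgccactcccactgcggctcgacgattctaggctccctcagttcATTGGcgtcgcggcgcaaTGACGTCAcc
Tyw1 to Sbds, chr5:130255531-130255618, plus strand: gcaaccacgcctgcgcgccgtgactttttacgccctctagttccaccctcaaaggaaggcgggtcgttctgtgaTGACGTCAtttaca
Before the RefSeq start of Dph1, chr11:75190520-75190733, minus strand: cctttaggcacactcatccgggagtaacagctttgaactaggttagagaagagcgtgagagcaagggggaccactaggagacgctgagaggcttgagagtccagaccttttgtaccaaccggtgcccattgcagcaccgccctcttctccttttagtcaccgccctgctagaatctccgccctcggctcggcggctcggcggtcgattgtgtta

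Loss of Isca2 left none of the 8 genes past the threshold against WT. By edgeR's quasi-likelihood test with an adjusted p under 0.05, 0 of 8 were called in KO against WT, where 0.122% of all genes were. An unadjusted p under 0.05 was reached by 2 of 8 (13% of all genes). DESeq2 called 1 member, Dph1, and 650 of all 13953 genes. Ppat and Cdk5rap1 were higher in both KO libraries than in every WT library, and Dph1 was lower, against 13.1% of all genes higher and 12.5% lower without overlap. The median log2 fold change was -0.11 over the members and -0.06 over all genes.

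Against WT, the G77S libraries gave no call either. By the same test 0 of 8 members were called where 3.39% of all genes were, and 3 of 8 had an unadjusted p under 0.05 (20% of all genes). DESeq2 called 2 members, Cdk5rap1 and Ppat, and 1538 of all 13953 genes. Dph2 passed the filter through the G77S libraries and is left aside in the next counts. Of the 7 other members, Dph1, Elp3, Ppat and Tyw1 were higher in all G77S libraries than in any WT library and none was lower in this sense, against 17.2% and 11.8% of all genes. The median over these 7 was 0.76 against 0.04 over all genes, on the log2 scale.

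Between G77S and KO, Dph1 was called, higher in G77S, which makes 1 of 8 members where 4.19% of all genes were called in either direction and 1.76% as higher, and 3 of 8 had an unadjusted p under 0.05 (20.7% of all genes). Again without Dph2, Dph1 and Elp3 were higher in all G77S libraries than in both KO libraries and Cdk5rap1 was lower, against 24.9% and 20% of all genes. The median of the 7 was 0.22 and that of all genes 0.10. The comparisons share libraries, so they are not independent of each other.

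**Figure D1:**
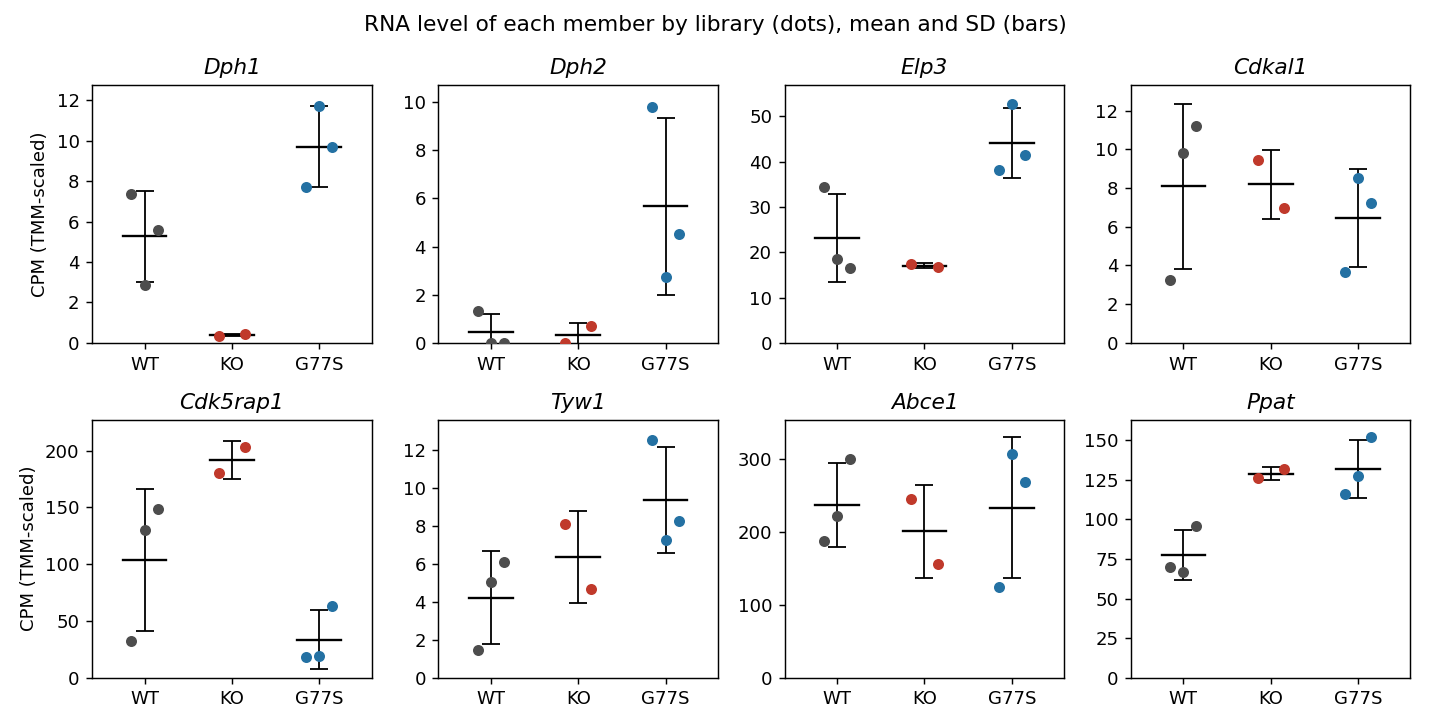
CPM of each of the 8 members (y axis, from 0, its own scale in each panel) by genotype (x axis); dots are libraries, the long bar is the mean and the error bar the SD (n = 3 WT, 2 KO, 3 G77S). Dph1 lies at 0.354 and 0.424 CPM in KO, below every other library, while Abce1 and Cdkal1 overlap between all genotypes.

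**Figure D2:**
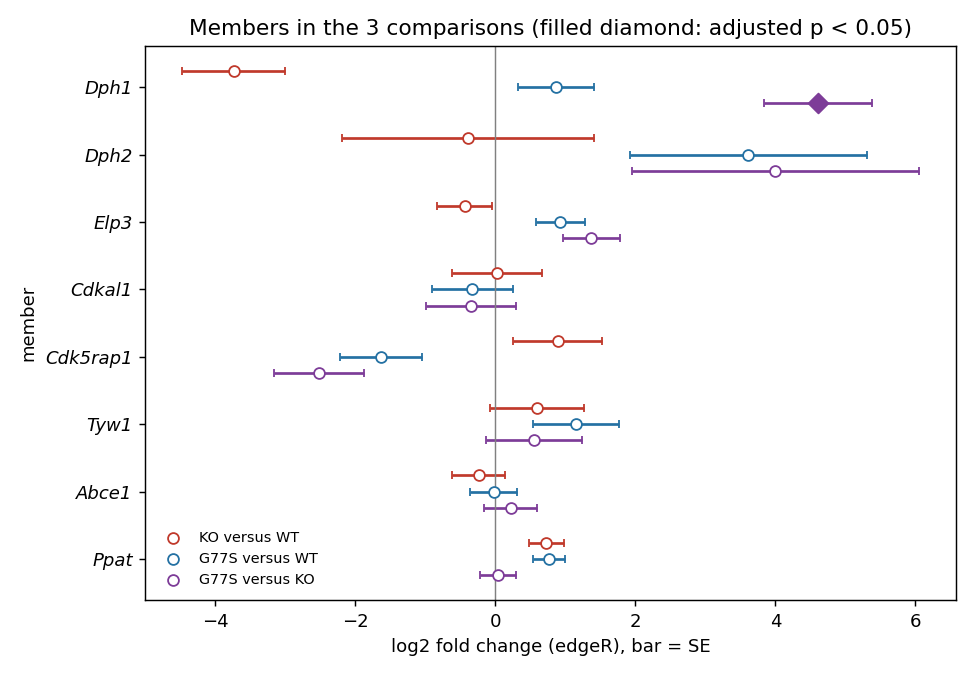
Log2 fold change of each member (x axis) with its SE in the 3 comparisons (colours); filled diamonds have an adjusted p under 0.05. Dph1 in G77S against KO is the only filled symbol, and the bars of Dph2 are the widest.

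Diphthamide is a modified histidine of elongation factor eEF2, the target of diphtheria toxin, and DPH1 and DPH2 form the complex that transfers the first carbon chain onto it. Dph1 (ENSMUSG00000078789, chromosome 11, 75177643 to 75191241, minus strand) stood at 7.36, 2.88 and 5.61 CPM in WT, 0.354 and 0.424 in KO, and 7.70, 11.7 and 9.72 in G77S. The KO libraries were the lowest of the 8 and the G77S libraries the highest, with no overlap between any groups. In expected counts KO held 5.93 and 8 for the gene, where WT held 29.2 to 132.25 and G77S 109.86 to 171.81. The mean was 0.389 ± 0.0492 CPM (SD, n = 2) in KO against 9.71 ± 2.0 (SD, n = 3) in G77S, a fitted 24.4-fold difference (log2 4.61, SE 0.77, adjusted p = 0.0103). In KO against WT the log2 fold change was -3.74 (SE 0.74, adjusted p = 0.086), and in G77S against WT it was 0.87 (SE 0.54, adjusted p = 0.409).

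Dph1 shares exons with Ovca2, a serine hydrolase gene on the same strand. Of the 2690 exon bases of Dph1, 969 are also exon bases of Ovca2, so part of its count depends on how the quantification divided reads, and how large a part was not tested. Ovca2 stood at 17.0, 25.9 and 25.1 CPM in WT, 26.5 and 28.2 in KO, and 34.7, 29.4 and 24.4 in G77S. Its KO libraries lay above all WT libraries and within the G77S range, unlike those of Dph1. With the counts of both genes added, an alternative chosen after the values were seen, G77S against KO gave 0.50 (adjusted p = 0.399) and KO against WT -0.01 (adjusted p = 1.0). Ovca2 makes up most of this sum in every library, so the sum largely follows Ovca2 and does not test the Dph1 difference. The abundance-weighted length in the authors' quantification was lowest for Dph1 in a KO library. It was 1922.0 bases in KO replicate 1, the length of an annotated retained-intron transcript, and 725.0 in KO replicate 2, that of an annotated processed transcript. The WT libraries gave 2021.41 to 2139.0 bases and the G77S libraries 1853.78 to 2083.5, a range that KO replicate 1 falls in, beside 2139 bases for the longest coding isoform. At 5.93 and 8 counts these lengths rest on few reads. The Dph1 call was lost without KO replicate 1 (4.49, adjusted p = 0.0644), without KO replicate 2 (4.74, adjusted p = 0.0648) and without G77S replicate 2 (4.45, adjusted p = 0.0519).

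**Figure D3:**
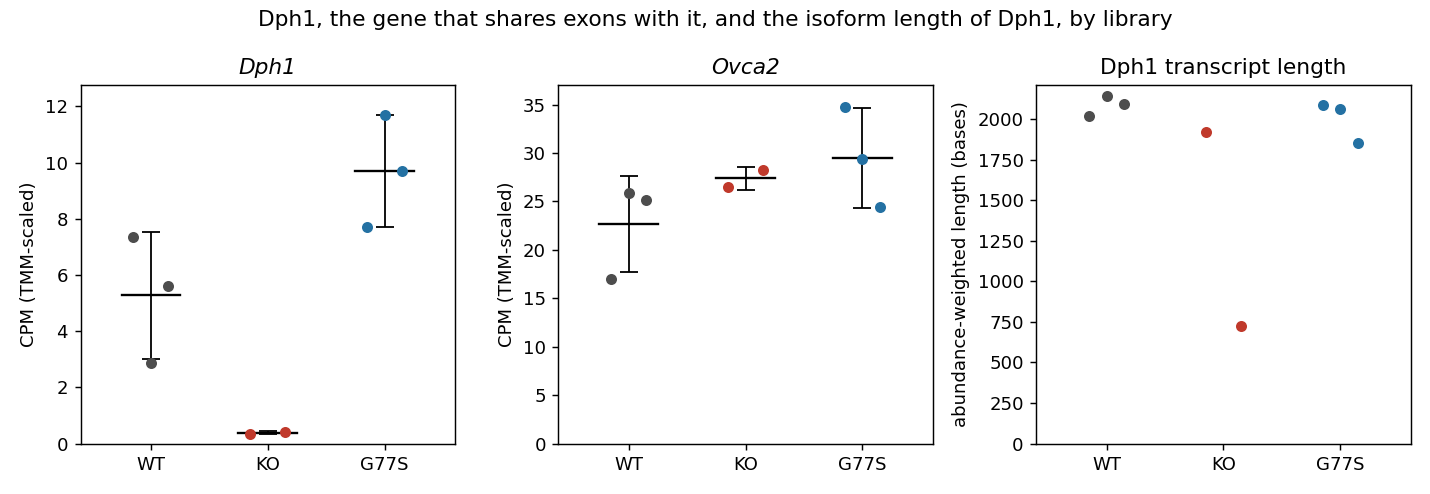
CPM of Dph1 (left) and of Ovca2 (middle), which shares 969 exon bases with it, and the abundance-weighted transcript length of Dph1 in bases (right), by genotype; dots are libraries, bars the mean and SD in the first 2 panels. Dph1 is lowest in KO at 0.354 and 0.424 CPM, where Ovca2 stands at 26.5 and 28.2.

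Dph2 (ENSMUSG00000028540, chromosome 4, 117888643 to 117892032, minus strand) was at 1.34, 0 and 0 CPM in WT, 0 and 0.689 in KO, and 9.80, 2.72 and 4.51 in G77S. Every G77S library lay above every other, and 3 of the 5 others had no count at all, which in the shallowest of them allows up to 0.298 CPM. Its log2 fold change was 3.61 in G77S against WT (SE 1.69, adjusted p = 0.265) and 3.999 against KO (SE 2.05, adjusted p = 0.294), neither of which passed. On log2(TPM + 1) values with limma, they were 1.45 (adjusted p = 0.0204) and 1.52 (adjusted p = 0.0227), on a scale where the median of all genes was itself at 0.23 and 0.34. Since Dph2 was tested only because of its G77S libraries, these values describe it and give no support of their own. KO against WT gave -0.39 (SE 1.80, adjusted p = 0.971), a value that ran from -5.83 to 5.49 over the alternatives.

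Of the 8 diphthamide genes only Dph1 was called in any comparison, and the list's median log2 fold change was -0.38 in KO against WT, -0.18 in G77S against WT and 0.04 in G77S against KO. Dph3, the small electron donor of the complex, stood at 80.1, 122 and 109 CPM in WT, 61.1 and 98.2 in KO, and 126, 127 and 122 in G77S. KO and G77S each overlapped WT, while all G77S libraries lay above both KO libraries (0.65, SE 0.29, adjusted p = 0.234, called in 2 of 15 alternatives). Eef2, the gene of the modified factor itself, had 186, 125 and 67.9 CPM in WT, 91.1 and 75.1 in KO, and 127, 116 and 87.7 in G77S, overlapping in every comparison (adjusted p from 0.542 to 0.809).

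ELP3 is the catalytic subunit of Elongator, which starts the modification of the wobble uridine of tRNAs. Elp3 (ENSMUSG00000022031, chromosome 14, 65530449 to 65593075, minus strand) stood at 34.4, 18.5 and 16.6 CPM in WT, 17.4 and 16.7 in KO, and 38.1, 52.8 and 41.6 in G77S. All G77S libraries were above the rest, and WT replicate 1 came nearest to them. G77S against KO gave 1.37 (SE 0.41, adjusted p = 0.0907), G77S against WT 0.93 (SE 0.35, adjusted p = 0.17) and KO against WT -0.44 (SE 0.40, adjusted p = 0.708). The G77S against WT difference passed in 1 of 16 alternatives, that without WT replicate 1 (1.34, adjusted p = 0.044). That against KO passed in 4 of 15. These were a fit of these 2 groups alone (1.36, adjusted p = 0.0405), DESeq2 (1.33, adjusted p = 0.013), and limma on log2(TPM + 1) and log2(TPM + 0.1). The abundance-weighted length of Elp3 hardly varied, at 2782.98 to 2831.13 bases over all 8 libraries.

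Among the 13 genes of Elongator and the wobble uridine pathway the median log2 fold change was 0.93 in G77S against WT, 0.63 against KO and -0.06 in KO against WT, beside 0.04, 0.10 and -0.06 over all genes. The 0.93 is the value of Elp3 itself, which is in the list. Of the genes above it, Ctu1, Urm1 and Mocs3 held at most 22, 33 and 19 counts in any WT library, and Elp6, Kti12 and Ctu2 held more. Only 1 of the 13 was called, Ctu2, higher in G77S than in KO. Its product is a subunit of the enzyme that puts sulfur on the same wobble uridine. Ctu2 stood at 11.04, 6.45 and 6.21 CPM in WT, 1.36 and 3.07 in KO, and 25.6, 21.2 and 11.9 in G77S. KO was lowest and G77S highest with no overlap, the order also seen for Dph1, and for Eif2d and Mreg, named below. Without overlap with WT, 12.5% of all genes were lower in KO and 17.2% were higher in G77S. The share with both at once was not counted. For Ctu2, G77S exceeded KO by 3.13 (SE 0.63, adjusted p = 0.0232). The call was kept in 10 of 15 alternatives, over which the adjusted p of Ctu2 ran from 1.09e-05 to 0.119. The losses included those without either KO replicate and without G77S replicate 1 or 2. Elp5, an Elongator subunit, gave -0.24, -0.19 and 0.06 in KO against WT, G77S against WT and G77S against KO. Trmt112, the partner of several methyltransferases including ALKBH8, gave 0.64, 0.42 and -0.22, all without a call.

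CDKAL1 and CDK5RAP1 add a methylthio group to the adenosine beside the anticodon, CDKAL1 on a lysine tRNA of the cytosol and CDK5RAP1 on mitochondrial tRNAs. Cdk5rap1 (ENSMUSG00000027487, chromosome 2, 154335380 to 154373010, minus strand) varied most among the abundant members, with 32.4, 130 and 148 CPM in WT, 180 and 204 in KO, and 18.3, 18.8 and 63.3 in G77S. Both KO libraries were above all WT libraries and all G77S libraries, while WT replicate 1 fell among the G77S values. The log2 difference of G77S from KO was -2.52 (SE 0.64, adjusted p = 0.0546), just outside the threshold, and it passed in 11 of 15 alternative settings. It did not pass without G77S replicate 1 or 2 (adjusted p = 0.165 and 0.172). Nor did it without KO replicate 1 (-2.61) or 2 (-2.43), which leaves 1 KO library. Against WT the difference was -1.63 (SE 0.59, adjusted p = 0.152) and passed in 3 of 16 alternatives. Without WT replicate 1 it was -2.06 (adjusted p = 0.0448). KO against WT gave 0.89 (SE 0.63, adjusted p = 0.601). The lowest library of WT and the lowest of G77S were also those without Y-linked RNA. G77S replicate 2, which has Y-linked RNA, was nearly as low as G77S replicate 1 (18.8 against 18.3 CPM). With a term for Y-linked RNA the difference of G77S from KO was -2.06 (adjusted p = 0.0481), and over the 6 libraries with Y-linked RNA, a choice made after the values were seen, it was -2.25 (adjusted p = 0.0456). Its abundance-weighted length was 1170.0 bases in G77S replicate 1 and 1525.58 to 1656.7 in the other 7 libraries.

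Cdkal1 (ENSMUSG00000006191, chromosome 13, 29191746 to 29855674, minus strand) was low throughout, at 3.23, 9.83 and 11.2 CPM in WT, 9.45 and 6.94 in KO, and 3.64, 8.50 and 7.20 in G77S. The groups overlapped in every comparison, with log2 fold changes of 0.02, -0.33 and -0.35 (SE 0.64, 0.58 and 0.64) and adjusted p of 1, 0.814 and 0.812 for KO against WT, G77S against WT and G77S against KO. Trit1, whose product makes the isopentenyl adenosine that CDK5RAP1 modifies further, ranged from 0.558 to 8.64 CPM in WT, 5.02 to 10.9 in KO and 2.08 to 9.25 in G77S. None of these 3 genes of the list was called in any comparison, and the list's median was 0.48, -0.33 and -0.35 in the same order.

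TYW1 closes the tricyclic ring of wybutosine, the bulky base beside the anticodon of phenylalanine tRNA. Tyw1 (ENSMUSG00000056310, chromosome 5, 130255619 to 130341563, plus strand) stood at 1.45, 5.06 and 6.12 CPM in WT, 8.09 and 4.66 in KO, and 12.5, 7.28 and 8.24 in G77S. All G77S libraries were above all WT libraries, and the KO range overlapped both. Log2 fold changes were 1.15 in G77S against WT (SE 0.61, adjusted p = 0.328), 0.55 against KO (SE 0.68, adjusted p = 0.70) and 0.60 in KO against WT (SE 0.67, adjusted p = 0.78). The abundance-weighted length was shorter in every G77S library, at 2316.53 to 2689.14 bases, than in WT (2902.41 to 3092.62) or KO (3044.0 in both), in the libraries whose fragments were also shorter. Sbds, across the shared start region printed above, did not follow Tyw1: its levels were 209, 259 and 251 CPM in WT, 243 and 240 in KO, and 161, 141 and 198 in G77S. G77S lay below both other groups for Sbds, by -0.53 against WT (adjusted p = 0.179) and -0.54 against KO (adjusted p = 0.207). None of the 6 wybutosine genes was called, and their medians were 0.07, 0.03 and 0.29 in KO against WT, G77S against WT and G77S against KO. Trmt5, the methyltransferase that acts before TYW1, gave 0.45, 0.15 and -0.30, and Tyw5, a hydroxylase of the same pathway, 0.29, -0.21 and -0.50.

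ABCE1 splits ribosomes after termination. Abce1 (ENSMUSG00000058355, chromosome 8, 79683462 to 79711740, minus strand) had 188, 222 and 301 CPM in WT, 246 and 156 in KO, and 124, 307.5 and 269 in G77S. The G77S libraries alone spanned the range of all 8, and log2 fold changes were -0.24, -0.02 and 0.22 (SE 0.38, 0.34 and 0.38) with adjusted p of 0.865, 0.984 and 0.797. Anapc10, on the other side of its start region, gave -0.07, 0.01 and 0.08. Etf1, the release factor that recognises stop codons, gave -0.28, -0.07 and 0.22, and Denr, part of a dimer that frees tRNA from the small subunit, 0.24, -0.24 and -0.49, none of them called.

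Eif2d, a single-chain factor with the same activity as the DENR dimer, was the exception among the 12 termination, recycling and rescue genes and was called in both comparisons with G77S. It stood at 75.6, 71.8 and 52.8 CPM in WT, 38.6 and 43.2 in KO, and 190, 221 and 145 in G77S. Eif2d was higher in G77S by 1.47 against WT (SE 0.25, adjusted p = 0.0121) and by 2.18 against KO (SE 0.30, adjusted p = 0.00448), and the difference from KO was called in 15 of 15 alternatives. The Eif2d difference from WT was lost without G77S replicate 1 or 2 (adjusted p up to 0.0747). In KO against WT it gave -0.71 (adjusted p = 0.321). The list's medians were -0.02, -0.06 and -0.16 for KO against WT, G77S against WT and G77S against KO, beside -0.06, 0.04 and 0.10 over all genes.

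PPAT catalyses the first committed step of purine synthesis, and its cluster is structural. Ppat (ENSMUSG00000029246, chromosome 5, 76913249 to 76951578, minus strand) stood at 70.2, 67.1 and 95.9 CPM in WT, 126 and 132 in KO, and 116, 128 and 152 in G77S. Every mutant library of either kind was above every WT library. The log2 fold change was 0.73 in KO (SE 0.25, adjusted p = 0.247) and 0.76 in G77S (SE 0.23, adjusted p = 0.0917), both against the same WT libraries, and 0.03 between G77S and KO (SE 0.25, adjusted p = 0.958). The G77S difference from WT passed in 3 of 16 alternatives. These were DESeq2 (0.75, adjusted p = 0.0156) and limma on log2(TPM + 1) (1.18, adjusted p = 0.0173) and on log2(TPM + 0.1). On log2(TPM + 1) the median of all genes was itself at 0.235.

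Ppat lies head to head with Paics, whose product acts later in the same pathway, and 272 exon bases of the 2 genes overlap on opposite strands. The sources used here do not say whether counting used strand, so reads from this stretch may not be told apart. Paics had 331, 349 and 439 CPM in WT, 718.5 and 664 in KO, and 387, 532.6 and 529 in G77S. The KO libraries were above all others, by 0.89 against WT (SE 0.22, adjusted p = 0.155), while G77S overlapped WT (0.37, adjusted p = 0.339). With both genes' counts added, chosen after the values were seen, KO against WT gave 0.86 (adjusted p = 0.155) and G77S against WT 0.45 (adjusted p = 0.238).

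The 13 purine genes had medians of 0.57 in KO against WT, 0.37 in G77S against WT and 0.03 between G77S and KO, and 0, 2 and 1 of them were called. The called genes were lower in G77S and belong to other ends of the pathway than Ppat. Prps1, which makes the ribose phosphate that PPAT uses, stood at 3344, 3608 and 3815 CPM in WT, 2575 and 2000 in KO, and 1948, 1658 and 2299 in G77S. It fell by 0.87 on the log2 scale in G77S against WT (SE 0.19, adjusted p = 0.0361), a call kept in 8 of 16 alternatives (adjusted p up to 0.183). The losses included those without any 1 of the G77S libraries and without WT replicate 2 or 3. Adss, the first enzyme of the branch to AMP, stood at 261, 209 and 150 CPM in WT, 208 and 221 in KO, and 82.6, 103 and 90.2 in G77S. It fell by 1.17 against WT (SE 0.24, adjusted p = 0.0281) and by 1.22 against KO (SE 0.26, adjusted p = 0.0281), on the log2 scale. The first Adss call was kept in 9 of 16 alternatives and the second in 7 of 15 (adjusted p up to 0.119 and 0.186). Both were lost on both TPM scales and without any 1 G77S library. The first was also lost without WT replicate 2 and over the 6 libraries with Y-linked RNA, and the second without either KO replicate and with the replicate block (adjusted p = 0.0634).

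The cytosolic iron-sulfur assembly genes, which supply clusters to enzymes outside the mitochondria, had 1 called gene of 9. Ciao2a, a targeting factor best known for its part in the maturation of iron regulatory protein, stood at 3005, 3530 and 3744 CPM in WT, 3487 and 3618 in KO, and 1276, 1162 and 1983 in G77S. It fell by 1.22 on the log2 scale in G77S against WT (SE 0.22, adjusted p = 0.0165) and by 1.27 against KO (SE 0.24, adjusted p = 0.0188), and KO against WT gave 0.05. Both Ciao2a calls were lost without G77S replicate 1 or 2. The first was kept in 11 of 16 alternatives (adjusted p up to 0.0956), and its losses included those without WT replicate 2 or 3. The second was kept in 11 of 15 and was also lost without either KO replicate. Nubp2, a scaffold subunit on which the clusters are built, gave -0.66 in KO against WT (adjusted p = 0.297), 0.32 in G77S against WT (adjusted p = 0.458) and 0.98 in G77S against KO (SE 0.25, adjusted p = 0.0562). The list's medians were -0.20, 0.21 and 0.46 in these comparisons.

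**Figure D4:**
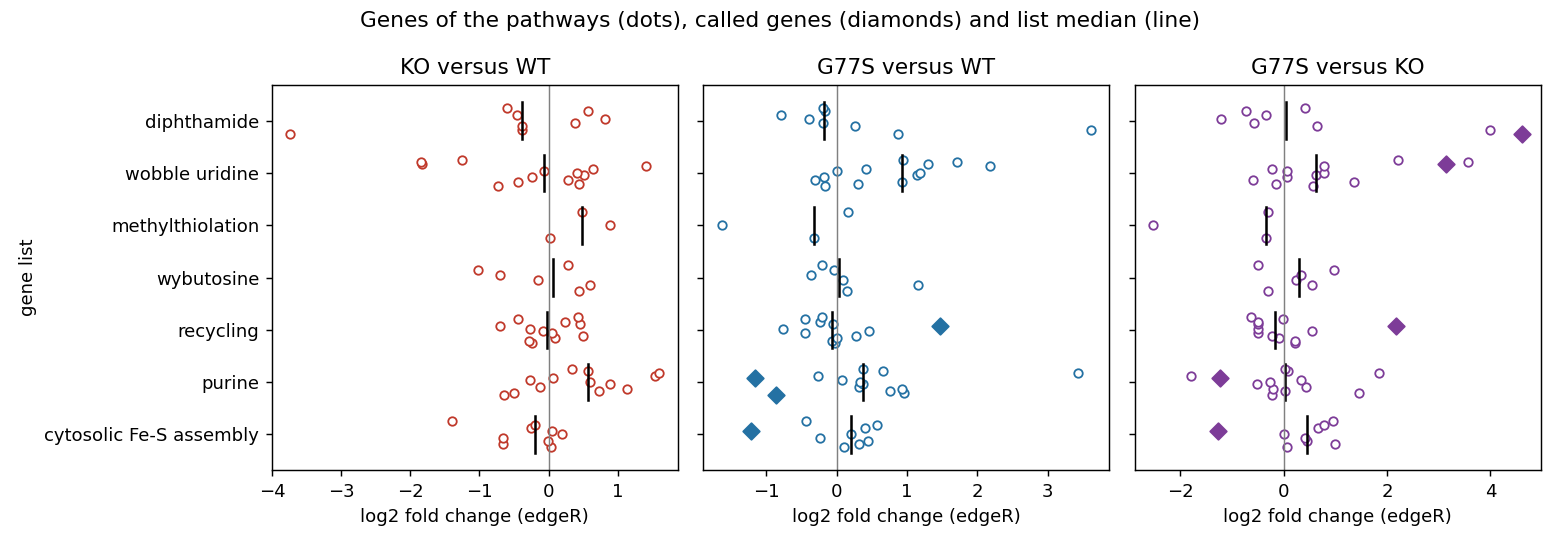
Log2 fold change (x axis) of each gene in 7 pathway lists (y axis) for KO against WT, G77S against WT and G77S against KO; circles are genes not called, filled diamonds genes with an adjusted p under 0.05, and black lines list medians. Diamonds are absent from KO against WT, and the wobble uridine median lies at 0.93 in G77S against WT, the value of the member Elp3.

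Levels can be compared between genes only per length, for which TPM was used. In WT the order of mean TPM was Cdk5rap1 (57.9), Abce1 (51.8), Ppat (16.3), Elp3 (7.31), Cdkal1 (3.67), Dph1 (2.33), Tyw1 (1.13) and Dph2 (0.17). Neighbours in this order overlapped between libraries except that Abce1 was above Ppat and Ppat above Elp3 in all of them. In KO, Cdk5rap1 (99.0) was above Abce1 (39.7) without overlap, and Dph1 (0.36) and Dph2 (0.095) were last and overlapped. In G77S, Abce1 (66.9), Ppat (37.9) and Cdk5rap1 (25.6) led with overlapping libraries, and the first break in the order came between Elp3 (16.8) and Dph1 (5.37). Cdk5rap1 therefore led the order in WT and KO but not in G77S, and Dph1 was below Tyw1 by mean TPM in KO but above it in WT and G77S.

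For each member the gene of at least 10 CPM with the nearest profile over the 8 libraries was found, by the root mean square difference of log2 CPM centred on each gene's mean. The nearest were Bri3 for Elp3 (0.1), Mydgf for Ppat (0.122), Eif2a for Abce1 (0.164) and Tmem69 for Cdkal1 (0.209). They were Prps1l3 for Tyw1 (0.243), Tmem218 for Cdk5rap1 (0.354), Mreg for Dph1 (0.607) and Mgarp for Dph2 (0.885). Dph1 and Dph2 had the least close matches by this measure. They were also the members that varied most over the libraries (SD of log2 CPM 1.72 and 2.37), and such a difference grows with that spread.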

How the data were processed

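RNA was measured in 8 libraries, 1 deposited table each. The authors' expected counts and TPM are RSEM output, per the file headers. According to the submitters' processing notes the build was mm10 (GRCm38) and the tools were STAR 2.6.1c, RSEM 1.3.1, DESeq2 1.42.1 and Trim Galore 0.4.5. Strand settings and annotation release: not given in the sources used here. Expected counts were rounded and fitted in R 4.3.3 by edgeR 4.0.16, with filterByExpr, TMM scaling, 1 quasi-likelihood model over all 8 libraries (common coefficient of variation 0.65) and Benjamini-Hochberg adjustment over 13953 genes, with calls at an adjusted p under 0.05. TPM, scaled within each library by the authors, served for levels between genes and for limma 3.58.1. GENCODE names matched 55230 of 55471 identifiers (99.6%). The steps were tested on simulated data.

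Members and lists were chosen with earlier results of these data known. Named genes are the members, Isca2, up to 4 called genes per list or else its 2 most abundant, Paics, Eef2, Trit1, genes sharing exons and nearest profiles; Sbds and Anapc10 share start regions and were added later. Alternatives were RLE scaling, no or a stricter filter, 2 groups only, a replicate block, a Y-linked term, DESeq2 1.42.0, limma on TPM, and leaving out each library. Counting floors cover counting error only.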

Additional observations from a re-analysis of the deposited data

Results flagged for a closer look

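The effect of G77S differed from that of KO, both taken against WT, for 1 member and 4 genes of its pathways, as tested by the direct contrast of G77S with KO in edgeR's quasi-likelihood fit. For Dph1 the difference was 4.61 on the log2 scale, for a gene that shares exons with Ovca2. It was 3.13 for Ctu2 and 2.18 for Eif2d, both higher in 3 of 3 G77S libraries than in either KO library. It was -1.27 for Ciao2a and -1.22 for Adss, both lower in 3 of 3 G77S libraries. In this contrast 4.19% of all genes were called, and 24.9% were higher and 20% lower in G77S without overlap. Dph1, Ctu2, Eif2d, Ciao2a and Adss were called in 12, 10, 15, 11 and 7 of 15 alternatives. Genotype cannot be told apart here from what set the fragment length. Groups of 2 or 3 libraries are too small for a test of single outlying samples.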

How the results depend on the processing

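Over the alternatives, 309 log2 fold changes of the members kept their sign and side of the threshold, 29 gained a call, 4 lost one (all Dph1 in G77S against KO) and 29, none called in either setting, changed sign. Members called in KO against WT numbered 0, and 1 (Dph1) without a filter and by DESeq2. In G77S against WT 0 became 2 without a filter (Cdk5rap1, Dph2), by DESeq2 (Cdk5rap1, Ppat), and on log2(TPM + 1) and log2(TPM + 0.1) (Dph2, Ppat), and 0 to 2 on leaving out a library, with 2 (Cdk5rap1, Elp3) without WT replicate 1. In G77S against KO 1 became 2 with RLE scaling, no filter, the stricter filter, the Y-linked term and the 6 libraries with Y-linked RNA, 3 in the 2 groups alone and by DESeq2, and 4 on both TPM scales. It was 0 to 2 on leaving out a library: 0 without KO replicate 1, KO replicate 2 or G77S replicate 2, and 2 without G77S replicate 3.

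Calls over all genes in KO against WT were 17, and 547 without a filter, 62 with the stricter one, 11 in the 2 groups alone, 32 with the Y-linked term, 32 over the 6 libraries holding Y-linked RNA, 650 by DESeq2, and 95 and 86 on the TPM scales with pseudocounts 1 and 0.1. Leaving out a library gave 0 to 42: 0 without KO replicate 2 (1366 genes at an unadjusted p under 0.05), 2, 10 and 40 without WT replicates 2, 3 and 1, and 42 without KO replicate 1. In G77S against WT the 473 calls became 1336, 745, 1538, 1466 and 1307 with no filter, the stricter filter, DESeq2 and the TPM scales, 314 in the 6 libraries, and 86 (without G77S replicate 2) to 638 (without WT replicate 1) on leaving out a library. In G77S against KO the 585 became 1411 without a filter, 1009 in the 2 groups, 1700 by DESeq2, 1849 and 1744 on the TPM scales, and 161 (without G77S replicate 2) to 243 (without G77S replicate 3). The cause was not tested.

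The TPM scales moved the median of all genes to -0.12, 0.23 and 0.34 (pseudocount 1) and -0.18, 0.41 and 0.59 (0.1) in the 3 comparisons. Calls in G77S against WT were then 1178 higher and 288 lower, or 1030 and 277, in place of 182 and 291, and against KO 1543 and 306, or 1469 and 275, in place of 246 and 339.

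Signs changed for values near 0 or with wide errors, none of them called. Among members in KO against WT, Dph2 (-0.39) gave 0.83 with the replicate block, 2.56 with the Y-linked term, 5.49 in the 6 libraries and -5.83 to 5.46 on leaving out a library. Cdkal1 gave -0.27 with that term, -0.33 in the 6 libraries and -0.36 to 0.34 on leaving one out, and Abce1 -0.60 to 0.053. In G77S against WT, Abce1 gave 0.016 with the stricter filter, 0.25 on both TPM scales, 0.14 in the 6 libraries and -0.25 to 0.28 on leaving one out, and Cdkal1 0.42 and 0.57 on the TPM scales. In G77S against KO, Abce1 gave -0.025 with the block and -0.073 to 0.58 on leaving one out, and Cdkal1 0.039 with the Y-linked term and 0.41 and 0.50 on the TPM scales. Ppat there gave -0.11 with the block, 0 by DESeq2, -0.42 summed with Paics and -0.096 to 0.086 on leaving one out.

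Other named genes changed sign as follows. On the TPM scales in KO against WT, Ciao2a gave -0.13 in both, Adss -0.11 in both, Ovca2 -0.12 in both, and Sbds -0.20 and -0.21. In G77S against WT they gave Eef2 0.24 and 0.25, Elp5 0.061 in both, Tyw5 0.14 and 0.15, Etf1 0.27 in both and Denr 0.46 in both. In G77S against KO they gave Trit1 0.099 and 0.068, Trmt112 0.24 in both, Trmt5 0.38 and 0.39, Tyw5 0.086 and 0.088, Denr 0.40 in both and Prps1 0.29 in both. With the Y-linked term, Ciao2a gave -0.038 and Sbds -0.045 in KO against WT, and Trit1 0.22 in G77S against KO. In the 6 libraries, KO against WT gave Trit1 -0.034, Ciao2a -0.004 and Sbds -0.049, G77S against WT Eef2 0.076, Trit1 -0.55 and Anapc10 -0.18, and G77S against KO Ovca2 -0.057. With the replicate block, KO against WT gave Adss -0.032 and Anapc10 0.17, and G77S against KO Elp5 -0.016 and Anapc10 -0.12. Anapc10 in G77S against WT gave -0.004 with RLE and DESeq2 and -0.009 without a filter. On leaving out a library, KO against WT gave Trit1 -0.19 to 0.93, Ciao2a -0.030 to 0.12, Adss -0.12 to 0.27, Anapc10 -0.34 to 0.17 and Sbds -0.075 to 0.071. G77S against WT gave Eef2 -0.49 to 0.20, Trit1 -0.37 to 0.60, Elp5 -0.43 to 0.050, Etf1 -0.16 to 0.036 and Anapc10 -0.26 to 0.25. G77S against KO gave Trit1 -0.77 to 0.35, Elp5 -0.14 to 0.28, Ovca2 -0.059 to 0.21 and Anapc10 -0.087 to 0.13.

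Replicate numbers did not pair the libraries: deviations of same-numbered libraries correlated at -0.021 to 0.071, and in G77S against WT not every library correlated best with its own number. With the number as a replicate block, calls were 8, 411 and 600 in the 3 comparisons, and members called 0, 0 and 2, Cdk5rap1 joining Dph1.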

Other observations

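Gart, a trifunctional enzyme of the steps after PPAT, was chosen after its values were seen. It stood at 37.4, 18.3 and 24.97 CPM in WT, 68.4 and 50.0 in KO, and 49.8, 50.4 and 54.0 in G77S. All mutant libraries were above all WT libraries, as for Ppat, without a call (KO against WT 1.14, adjusted p = 0.205, and G77S against WT 0.93, adjusted p = 0.13, edgeR). Of all genes, 13.1% were higher in KO and 17.2% higher in G77S than in WT without overlap. The share higher in both at once was not counted, and both comparisons use the same WT libraries. Among the 13 purine genes Adsl and Impdh2 also had all mutant libraries above all WT libraries. Prps1 was lower in both mutants, and the rest overlapped WT in at least 1 of these comparisons. Urm1, the sulfur carrier that serves CTU1-CTU2, likewise picked with its values known, had 0.390, 2.09 and 1.53 CPM in WT, 0.354 and 0.371 in KO, and 3.43, 4.90 and 4.77 in G77S. By CPM, KO was lowest and G77S highest, the order of Ctu2, but KO held 6 and 7 counts against 7 in WT replicate 1. The place of KO below WT therefore rests on a near tie at few counts. By TPM, KO and G77S each overlapped WT for Urm1, unlike for Ctu2. G77S lay above KO on both scales, and the log2 fold change of Urm1 in G77S against KO was 3.56 (SE 1.09, adjusted p = 0.0996).

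WT replicate 1 and G77S replicate 1, the libraries without Y-linked RNA, were each the lowest of their group for Abce1, Cdkal1 and Cdk5rap1. For Dph2 both were the highest of their group. WT replicate 1 was also the highest of WT for Dph1 and Elp3, and G77S replicate 1 the highest of G77S for Tyw1. These orders were noticed in the values and not tested.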
